A study of Capra hircus with 3 samples.

Results

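The genes described here make, or serve, the hormone output of the fetal Leydig cell: STAR, CYP11A1, CYP17 (the files' symbol for CYP17A1), INSL3, LHCGR, FDX1, FDXR, SCARB1, HSD17B3 and CYB5A. They were taken by symbol, and all 10 were found among the 27271 features of the deposited tables, of which 16616 carry a symbol. The study ran droplet single-cell RNA sequencing on dissociated testis of fetal goats (Capra hircus, labelled male, with no treatment or genetic change named) at embryonic stages labelled E85, E105 and E125 (the number is the day of gestation), with 1 library for each stage. The number of fetuses behind each library is not given in the sources used here. The question addressed is which cells carried the transcripts of androgen synthesis and of INSL3, and how their levels differed between stages.

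Fetal Leydig cells lie between the testis cords and make androgens from cholesterol. The lipoprotein receptor SCARB1 can bring cholesterol into the cell, STAR moves it into the mitochondrion, and CYP11A1 cleaves its side chain with electrons passed on by FDXR and FDX1. CYP17 then makes androgen precursors with the help of CYB5A, and HSD17B3 turns androstenedione into testosterone. LHCGR is the receptor for luteinizing hormone on Leydig cells, and INSL3 is the Leydig cell peptide that drives the first phase of testis descent. In mouse fetuses the last step is known to take place in Sertoli cells, the AMH-secreting cells of the cords, because fetal mouse Leydig cells lack the HSD17B3 enzyme.

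The 3 libraries held 45339231, 40741902 and 49692252 unique molecular identifiers (UMIs) in the order E85, E105, E125, and 6328, 7069 and 7319 cells passed the quality limits. Pairs of libraries shared 9 to 14 cell barcodes. A level is the UMIs of a gene summed over the cells of a class, divided by all UMIs of that class and given per 1000000 (CPM). The exact 95% intervals beside levels, ratios and shares cover counting error only. Cells of 1 library are not replicates, so differences were not tested and lack a check between replicates. The library labelled E125 went against its label. No cell of it passed the Sertoli gate (SOX9, DMRT1 and FSHR), against 1644 cells at E85 and 1215 at E105, and 165 of its cells passed a gate of oocyte genes such as ZP3 and FIGLA. Its values are therefore given apart, as those of the library labelled E125.

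Leydig-like cells were sought by a gate on INSL3, CYP17, CYP11A1 and STAR: at least 4 UMIs over the 4 genes, with 2 or more of them detected. The gate took 62 cells at E85 (0.980% of cells, interval 0.752 to 1.25), 65 at E105 (0.920%, 0.710 to 1.17) and 81 in the library labelled E125 (1.11%, 0.880 to 1.37). These cells were of more than 1 kind. At E85, 25 of the 62 had 0 or 1 AMH UMI, and the other 37 had 10 to 56. At E105, 31 of the 65 had 0 or 1 AMH UMI, and the other 34 had 33 to 276. No gated cell of either library lay between 2 and 9 AMH UMIs. The AMH-bearing cells sat close to the limit of the gate, with a median of 5 gate UMIs at both stages, while the AMH-low cells had a median of 43 at E85 and 54 at E105. In the library labelled E125, 51 of the 81 gated cells had 47 to 3410 ZP3 UMIs, 1 had 8 AMH UMIs, and 29 were low in both. The 51 ZP3-bearing cells had a median of 157967 UMIs, and the gate takes no account of depth.

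**Figure D1:**
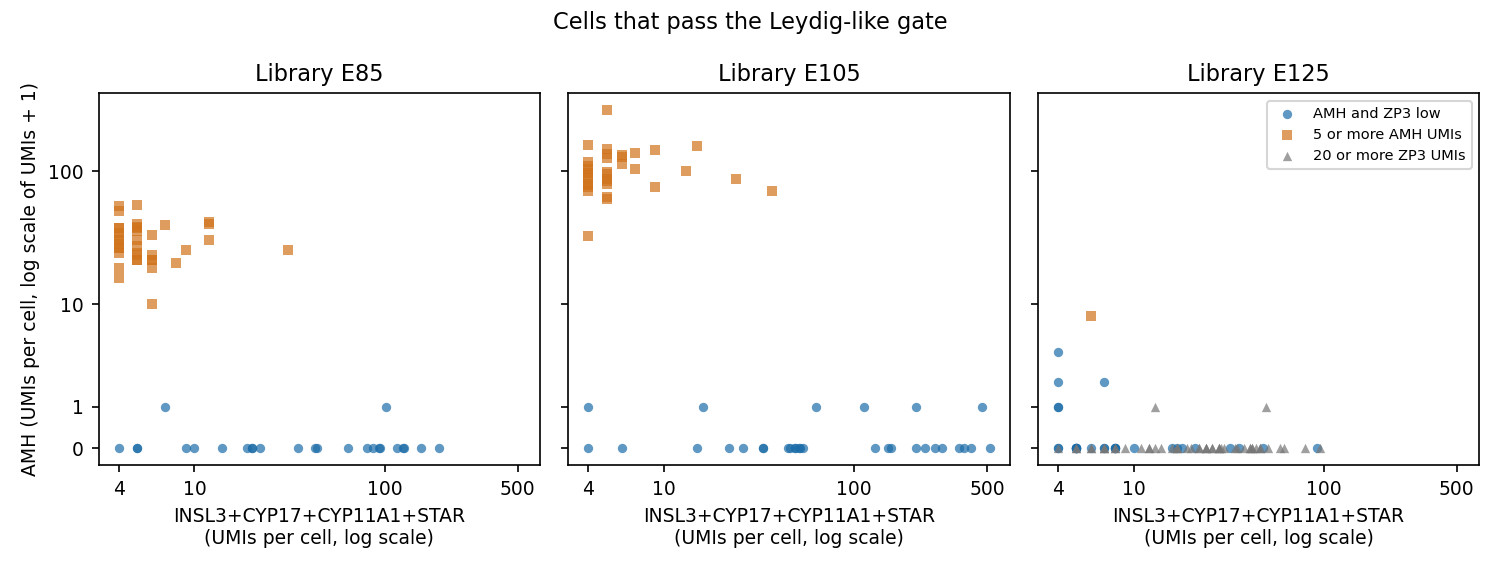
Each point is 1 cell that passed the gate, with the summed UMIs of INSL3, CYP17, CYP11A1 and STAR on the x axis (log scale) and its AMH UMIs on the y axis (log scale of UMIs plus 1), in 1 panel per library. At E85 and E105 the cells fall into an upper group with 10 or more AMH UMIs and few gate UMIs and a lower group with 0 or 1 AMH UMI that reaches 192 and 515 gate UMIs, and in the third panel most cells carry ZP3 (triangles).

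All AMH-bearing gated cells of E85 and E105 (37 and 34) lay in clusters of Sertoli cells. Their FSHR level was 275 CPM at E85 and 269 CPM at E105, close to the 262 and 277 CPM of the Sertoli class. The AMH-low cells had 0 FSHR and 0 PECAM1 UMIs at both stages, AMH at 11.9 and 22.1 CPM against 2181 and 6698 CPM in Sertoli cells, and SOX9 at 11.9 and 3.69 CPM against 377 and 359 CPM. Stromal genes were present in them at lower levels than in stromal cells: DCN was at 779 and 811 CPM against 4315 and 4877 CPM. Of the AMH-low cells, 21 of 25 and 26 of 31 lay in 1 cluster that the same markers name Leydig-like, and the others lay in stromal clusters except for 1 cell in a germ cluster. The AMH-low cells of E85 and E105 are called Leydig-like below. This division was chosen after the values were seen, so results are also given for all gated cells. The 4 gate genes chose these cells, and their levels in them are a description. The same holds for AMH, which divided the gated cells, and for SOX9 and FSHR, which took part in choosing the Sertoli class.

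STAR and SCARB1 act at the entry of cholesterol. All 25 Leydig-like cells of E85 held STAR, with 126 UMIs in sum or 750 CPM (624 to 892). At E105 it was found in 28 of 31 cells, with 170 UMIs or 627 CPM (536 to 728). In Sertoli cells it was at 0.157 CPM (3 UMIs in 1644 cells) and 0.965 CPM (14 UMIs in 1215 cells). Among the other classes, stromal cells held STAR at 12.4 CPM at E85 and 6.85 CPM at E105. Macrophages held it at 2.47 CPM (1 UMI) at E85 and 16.3 CPM (7.04 to 32.1, 8 UMIs) at E105. Those 8 UMIs lay in only 1.41% of the 142 macrophages, so that level rests on very few cells. SCARB1 was not highest in Leydig-like cells, where 15 UMIs at E85 gave 89.2 CPM (49.9 to 147) and 6 UMIs at E105 gave 22.1 CPM (8.12 to 48.2). Its highest level in each library was in endothelial cells, with 143 CPM (126 to 163), 153 CPM (134 to 174) and, in the library labelled E125, 316 CPM (302 to 329). At E85 the endothelial and Leydig-like intervals of SCARB1 overlapped, and at E105 they did not.

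CYP11A1 and its electron carriers differed from each other. CYP11A1 had 67 UMIs in 20 of 25 Leydig-like cells at E85, or 399 CPM (309 to 506), and 212 UMIs in 28 of 31 cells at E105, or 782 CPM (680 to 894). It was at no more than 1.30 CPM in Sertoli cells of either stage. FDXR, the reductase, had levels of 488 CPM (388 to 605) and 531 CPM (448 to 625) in E85 and E105. It was also present in Sertoli cells, at 154 and 139 CPM in 68.9% and 66.3% of cells, and was lower in the other main classes, from 20.5 to 55.0 CPM in germ, endothelial, mural, macrophage, lymphoid and stromal cells. FDX1, the ferredoxin between FDXR and CYP11A1, was hardly counted: Leydig-like cells held 2 UMIs at E85 (11.9 CPM, 1.44 to 43.0) and 2 at E105 (7.37 CPM, 0.893 to 26.6). In all classes of both libraries FDX1 lay between 0 and 11.9 CPM, and its order among them could not be resolved at this depth.

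CYP17 and CYB5A act together in the lyase step. CYP17 had 1125 UMIs in 24 of 25 Leydig-like cells at E85, or 6693 CPM (6307 to 7096), and 3179 UMIs in 30 of 31 cells at E105, or 11722 CPM (11318 to 12137). Sertoli cells held 48.6 CPM (932 UMIs) and 40.5 CPM (588 UMIs). CYB5A was at 107 CPM (63.5 to 169, 18 UMIs) and 118 CPM (80.7 to 167, 32 UMIs) in Leydig-like cells and at 25.9 and 23.9 CPM in Sertoli cells. At both stages its Leydig-like interval lay above that of every other class with at least 20 cells.

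HSD17B3 had its highest level in Sertoli cells. Not 1 UMI of it was counted in the Leydig-like cells of E85 or E105. The limit of 3 counts is 17.8 CPM and 11.1 CPM there, and the exact intervals reach 21.9 and 13.6 CPM. Sertoli cells held 5133 UMIs at E85, or 268 CPM (261 to 275), in 85.5% of cells, and 2014 UMIs at E105, or 139 CPM (133 to 145), in 57.3% of cells. By the limit of 3 counts its level was at least 15.0-fold lower in Leydig-like than in Sertoli cells at E85 and at least 12.5-fold lower at E105. The upper ends of the intervals of the ratio were 0.0820 and 0.0981. The AMH-bearing gated cells held HSD17B3 at 239 and 124 CPM, so all of the 127 and 68 HSD17B3 UMIs found in gated cells came from them. The other classes held HSD17B3 at 10.8 to 59.3 CPM at E85 and 4.53 to 30.7 CPM at E105, and in germ cells, at a median depth of 19258 and 19462 UMIs, 38.7% and 34.1% of cells had a UMI of it. Whether part of that came from free RNA was not tested.

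LHCGR and INSL3 mark the endocrine identity of the cells. LHCGR had 17 UMIs in 10 of 25 Leydig-like cells at E85, or 101 CPM (58.9 to 162), and 47 UMIs in 21 of 31 cells at E105, or 173 CPM (127 to 231). The Sertoli class had 0 LHCGR UMIs at E85 and 1 UMI at E105. Cells just inside the gate, with a sum of 4 or 5, had 0 LHCGR UMIs at either stage (27 and 25 cells, of which 24 and 23 were AMH-bearing), and gated cells with a sum of 8 or more had 19 and 47. Cells just outside the gate, with a sum of 2 or 3 and 2 genes or more detected, numbered 77 and 91, and 73 and 83 of them bore AMH. INSL3 had 176 UMIs in 17 of 25 Leydig-like cells at E85, or 1047 CPM (898 to 1214), and 893 UMIs in 28 of 31 cells at E105, or 3293 CPM (3080 to 3516). In Sertoli cells INSL3 was at 9.55 and 17.9 CPM, and in germ, endothelial and stromal cells at 0.568 to 1.51 CPM. At E105 mural cells held 2 INSL3 UMIs (5.15 CPM, 0.624 to 18.6) and macrophages 1 (2.04 CPM, 0.0516 to 11.4). The mural interval there overlapped that of Sertoli cells (15.8 to 20.2).

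**Figure D2:**
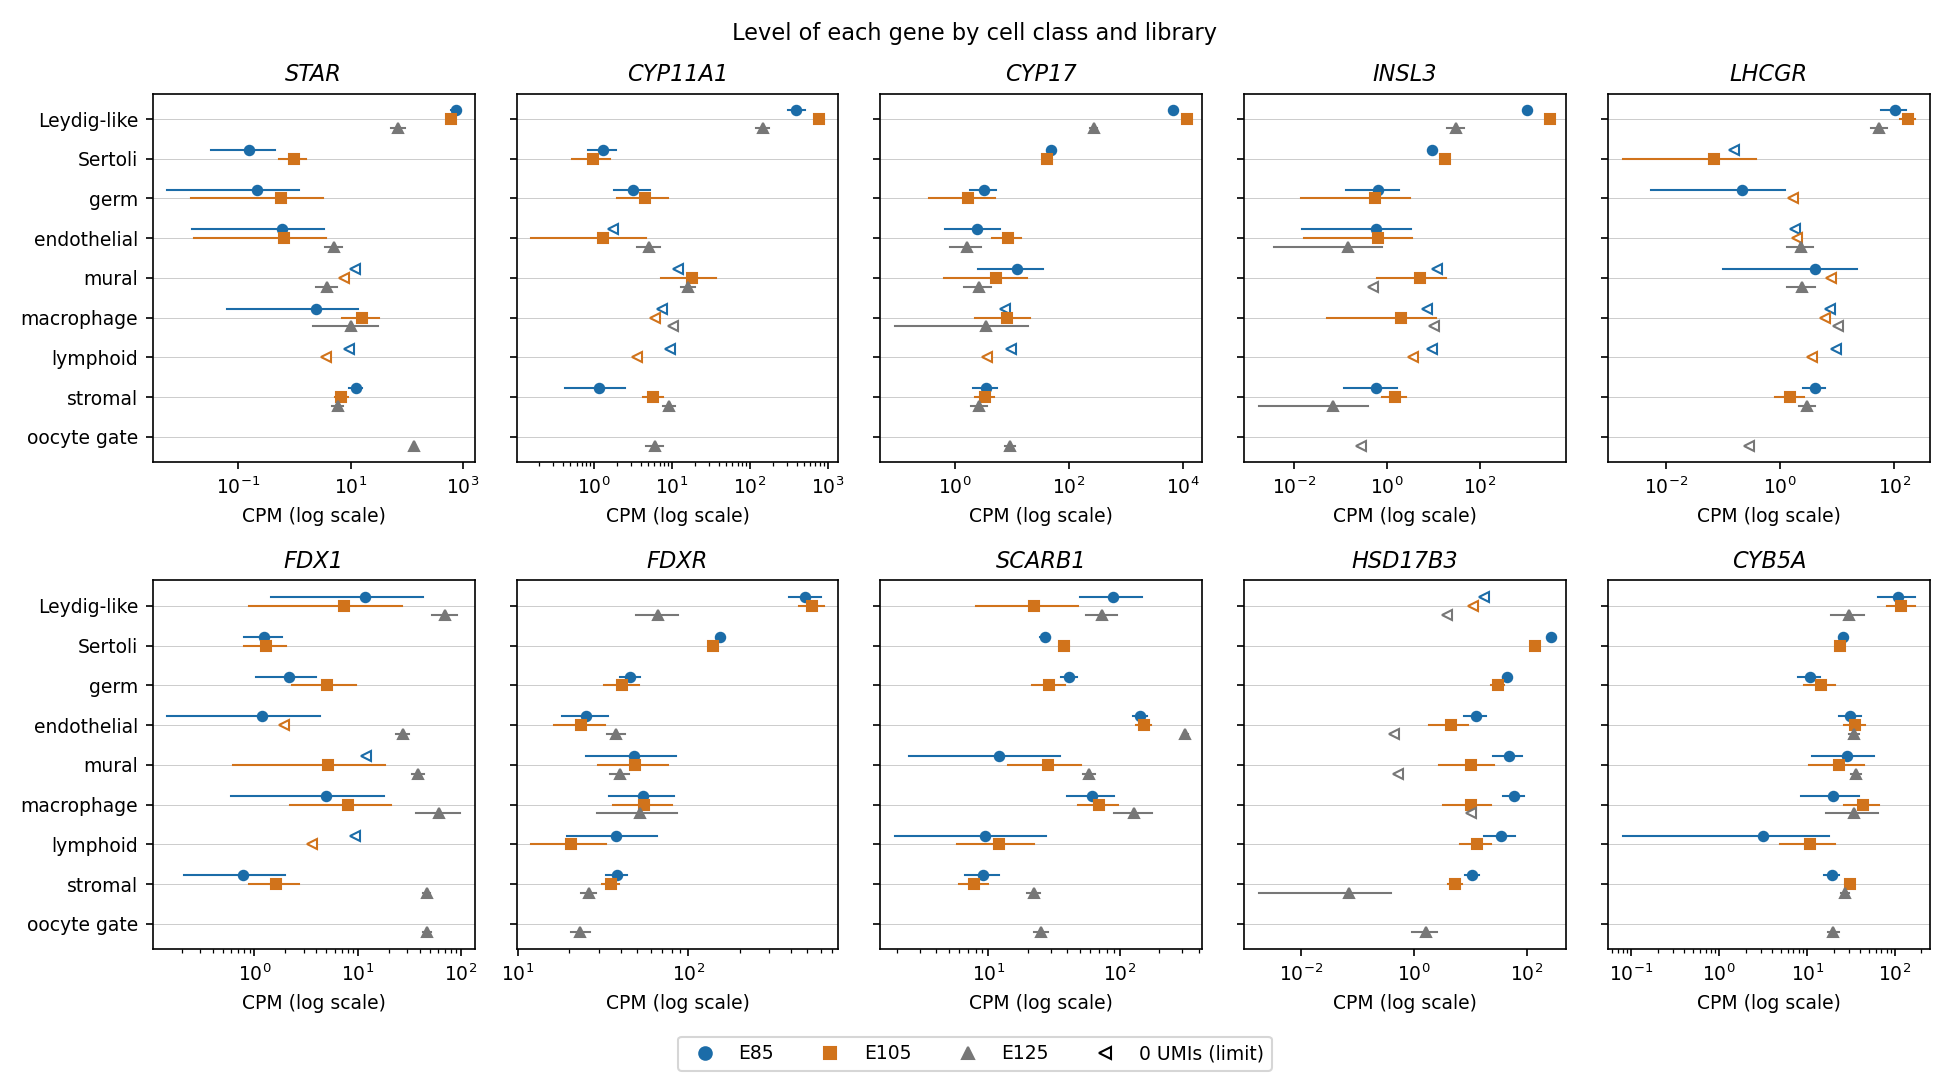
Each panel is 1 gene, with its level in CPM (log scale) on the x axis and the cell class on the y axis, for classes of at least 20 cells. Filled symbols are levels in each library with exact 95% counting intervals, open triangles are the limit of 3 counts where 0 UMIs were counted, and the row named Leydig-like holds the gated cells low in AMH and ZP3 of all 3 libraries. At E85 and E105 the top row is highest for STAR, CYP11A1, CYP17, INSL3, LHCGR, FDXR and CYB5A, while SCARB1 is highest in endothelial cells and HSD17B3 in Sertoli cells.

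Set against Sertoli cells of the same library, 4 of the 5 members outside the gate with at least 20 UMIs were at least 2 times higher in Leydig-like cells at E85 and 1 was at least 2 times lower. The background for the same rule was 20.3% of features higher and 36.3% lower, and 8.16% and 4.39% where the interval also had to lie beyond 1. At E105, 4 of the 6 were higher and 1 was lower, with a background of 18.6% and 26.8%, and of 9.19% and 5.81% with the interval. With the interval beyond 1, 4 members were higher and 1 lower at E85, and 3 and 1 at E105, where the call of FDX1 was lost. The shares of lower features without the interval include those with 0 UMIs in the small Leydig-like sums. FDXR was 3.17 times higher at E85 (2.51 to 3.95) and 3.82 times higher at E105 (3.20 to 4.52). CYB5A was 4.14 times higher (2.43 to 6.61) and 4.93 times higher (3.32 to 7.10). LHCGR, with 17 UMIs at E85 and so short of the 20 needed to be counted, was at least 646-fold higher there by the limit of 3 counts for Sertoli cells, which had no UMI, and the lower end of its interval was 471. Its ratio to the 1 Sertoli UMI at E105 was 2515 (430 to 101404). FDX1, called on only 2 UMIs at each stage, had ratios of 9.50 (1.09 to 38.3) and 5.63 (0.636 to 23.3). The ratio of SCARB1 was 3.30 (1.83 to 5.49) at E85 and 0.589 (0.215 to 1.29) at E105. Under TMM scaling, which uses the bulk of genes in place of total UMIs, the ratios at E85 and E105 were smaller: 2.05 and 2.88 for FDXR, 2.68 and 3.73 for CYB5A, and 2.13 and 0.445 for SCARB1.

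With all gated cells in place of the Leydig-like ones, 1 of 5 members outside the gate was at least 2 times higher at E85 (FDX1, on 3 UMIs, ratio 3.42, 0.660 to 11.3) against 7.46% of features, and 3 of 6 were higher at E105 (LHCGR, FDX1 and CYB5A) against 7.82%. None was at least 2 times lower (0 of 5 and 0 of 6), where 12.5% and 9.15% of features were. The ratio of FDXR was then 1.70 (1.46 to 1.97) and 1.99 (1.72 to 2.28), and that of CYB5A 1.60 (1.06 to 2.33) and 2.30 (1.65 to 3.14). HSD17B3 was at 0.678 (0.564 to 0.808) and 0.598 (0.463 to 0.762) of its Sertoli level. The AMH-bearing gated cells on their own had 0 of 5 members outside the gate called in either library, where 4.9% and 5.46% of features were called higher and 16.5% and 13.4% lower. Their FDXR ratio was 1.24 (1.00 to 1.51) and 1.08 (0.853 to 1.34).

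Each gate gene was also read in AMH-low and ZP3-low cells gated on the other 3 genes alone, so that its own UMIs did not choose the cells. CYP17 was then 157 times its Sertoli level at E85 (144 to 172, 20 cells) and 305 times at E105 (279 to 334, 27 cells). INSL3 was 110 times its Sertoli level (88.7 to 136, 25 cells) and 185 times (161 to 213, 30 cells). The ratio of CYP11A1 was 309 (192 to 511, 24 cells) and 827 (482 to 1541, 27 cells), and that of STAR 5172 (1726 to 25445, 20 cells) and 650 (377 to 1215, 30 cells). The Sertoli class was still the one left by the full gate, and the lower limit for INSL3 at E85 is under 100. Under TMM scaling the ratios of Leydig-like cells at E85 were 70.9 for INSL3 and 89.0 for CYP17.

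**Figure D3:**
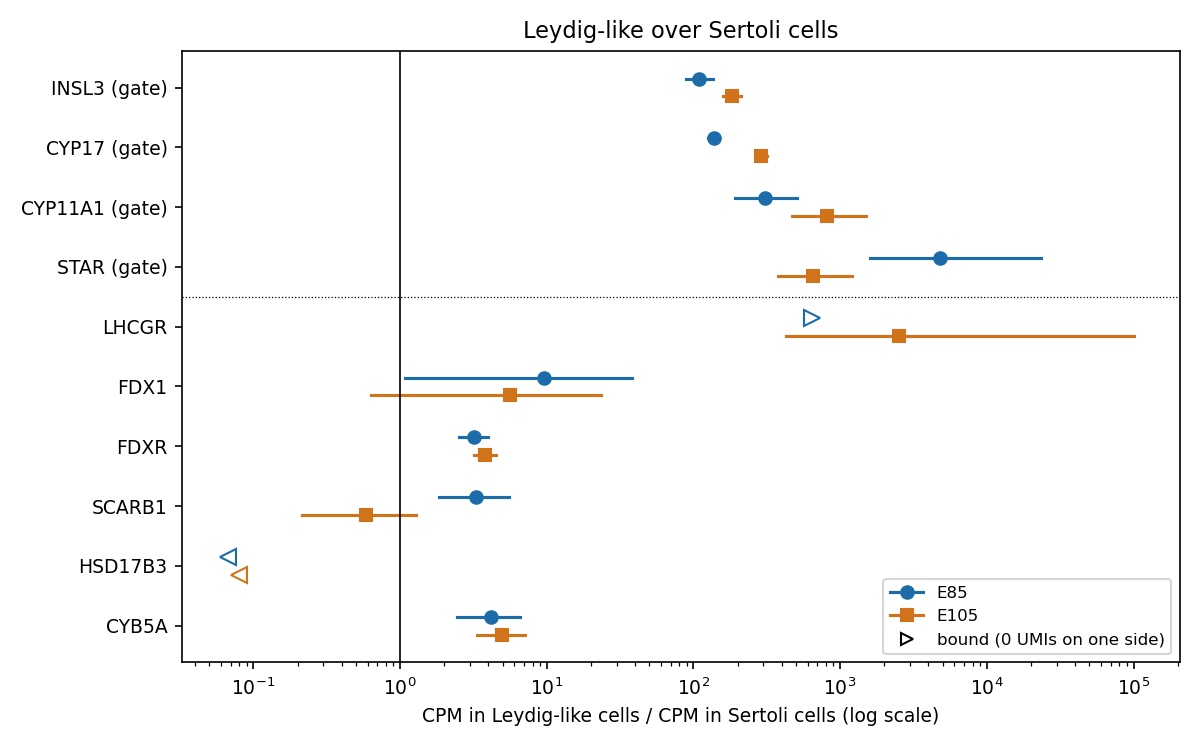
The x axis (log scale) gives the CPM in Leydig-like cells divided by the CPM in Sertoli cells of the same library for each gene, with exact 95% counting intervals, and open triangles give bounds where 1 class had 0 UMIs. The genes above the dotted line chose the cells, and below it LHCGR lies far to the right, FDXR and CYB5A lie between 3 and 5, SCARB1 lies on both sides of 1, and HSD17B3 lies to the left of 1.

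Between stages, INSL3 stood out in Leydig-like cells. Its level was 3.14 times higher at E105 than at E85 (2.67 to 3.72), that of CYP11A1 1.96 times (1.48 to 2.62) and that of CYP17 1.75 times (1.64 to 1.88). STAR was at 0.836 of its E85 level (0.660 to 1.06). Under TMM scaling these ratios were 3.48 for INSL3, 2.17 for CYP11A1, which then passes the 2-fold rule, 1.94 for CYP17 and 0.925 for STAR. Read in cells gated on the other 3 genes, the E105 to E85 ratio was 3.16 for INSL3 (2.68 to 3.73), 1.98 for CYP11A1 (1.49 to 2.66), 1.61 for CYP17 (1.51 to 1.73) and 0.775 for STAR (0.608 to 0.991). Over all gated cells the ratios were 3.67 for INSL3, 2.53 for CYP11A1, 2.21 for CYP17 and 1.10 for STAR (0.872 to 1.39), so STAR lay below 1 or above 1 depending on which cells were taken. With all gated cells 1 of the 5 measured members outside the gate was at least 2 times higher at E105 (LHCGR, 2.11, 1.22 to 3.82), against 6.39% of features, and 1 was lower (HSD17B3, 0.458, 0.336 to 0.619), against 2.03%. In Leydig-like cells, of 4 measured members outside the gate 0 were at least 2 times higher at E105, against 7.14% of features, and 1 was at least 2 times lower, against 3.22%. The lower one was SCARB1, at 0.248 (0.0788 to 0.676) on 6 against 15 UMIs. The ratio was 1.71 for LHCGR (0.966 to 3.18), 1.09 for FDXR (0.824 to 1.45) and 1.10 for CYB5A (0.600 to 2.08), and each of these intervals held 1. Each stage was 1 library, so stage and library cannot be told apart.

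Single cells spread widely around these levels. INSL3 ran from 0 through a median of 291 to 7112 CPM per cell at E85 and from 0 through 1134 to 12242 CPM at E105. CYP17 ran from 0 through 4265.5 to 29972 CPM and from 0 through 6236 to 30440.4 CPM. The ranges of the stages overlapped for both genes, and the higher sum of INSL3 at E105 came with a higher median and with more cells that had a UMI (28 of 31 against 17 of 25). Depth enters that share, since the cells had a median of 8864 UMIs at E105 and 6241 at E85, and its part was not tested. CYP11A1 ran from 0 through 315 to 1270.0 CPM at E85 and from 0 through 549 to 2097 CPM at E105, and STAR from 146 through 787 to 2564 CPM and from 0 through 512 to 1467 CPM. STAR was the gate gene found in every Leydig-like cell at E85.

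**Figure D4:**
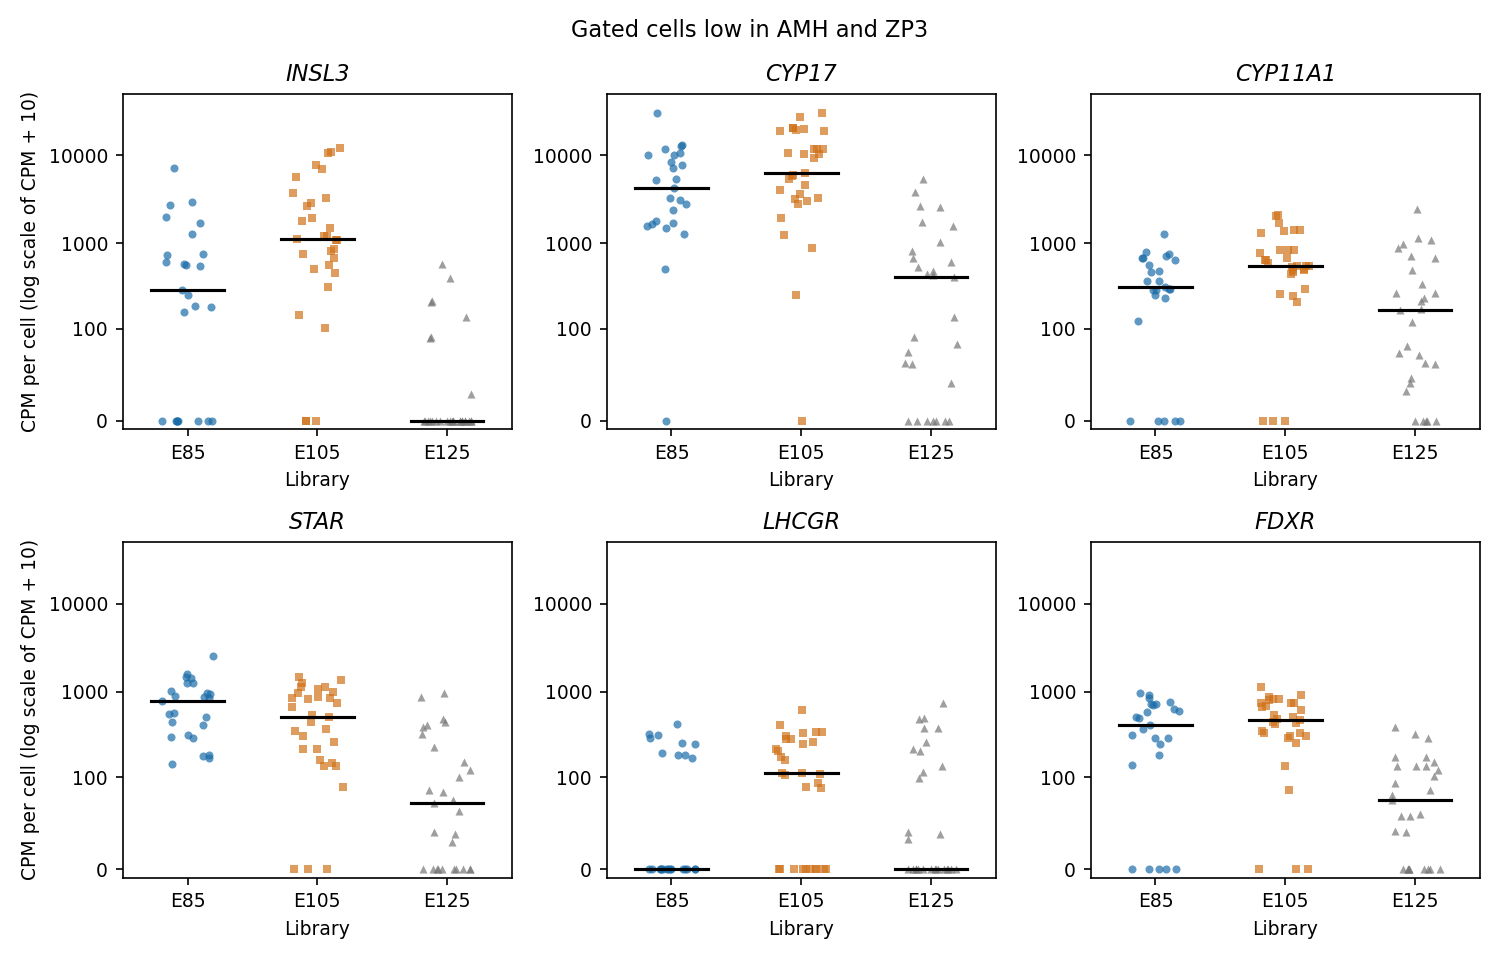
Each point is 1 gated cell low in AMH and ZP3, with its CPM on the y axis (log scale of CPM plus 10) and its library on the x axis, in 1 panel per gene. Horizontal lines are medians, which at E85 and E105 are 291 and 1134 CPM for INSL3 and 787 and 512 CPM for STAR.

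INSL3 and CYP17 varied together among Leydig-like cells. Spearman's rho of their CPM was 0.757 over 25 cells at E85 and 0.767 over 31 cells at E105, and Pearson's r was 0.626 and 0.420. STAR followed CYP17 less closely, with a rho of 0.123 and 0.556, as did CYP11A1 with 0.597 and 0.367. These cells share a library, and their depth and their pass through the gate enter both axes. At E85, 8 Leydig-like cells had no INSL3 UMI. They held CYP17 at 1277 CPM (932 to 1709), against 8129 CPM (7652 to 8629) in the 17 cells with INSL3, while STAR was at 653 CPM (414 to 979) and 775 CPM (633 to 940), with intervals that overlapped. The cells without INSL3 were shallower, with a median of 3639 UMIs against 6862, and 5 of the 8 lay in the cluster of Leydig-like cells. LHCGR was counted 0 times in them (0 to 104.7 CPM) and 17 times in the cells with INSL3 (128 CPM, 74.5 to 205). These LHCGR intervals overlapped, since the cells without INSL3 held only 35236 UMIs in sum, against 132855. At E105 the STAR contrast differed: the 3 cells without INSL3 had 0 STAR UMIs, against 661 CPM (565 to 768) in the 28 others. LHCGR was at 144 CPM (17.5 to 521) against 175 CPM (128 to 234), again with intervals that overlapped. CYP17 in the 3 cells was again lower, at 1802 CPM (1166 to 2660) against 12257 CPM (11833 to 12692). The part of depth in this was not tested.

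In Sertoli cells, HSD17B3 at E105 was at 0.518 of its E85 level (0.492 to 0.546), a difference just short of the 2-fold rule. Under TMM scaling its ratio was 0.491, which passes the rule. By the 2-fold rule on total UMIs, 0 of 5 measured members outside the gate were higher or lower in Sertoli cells, against 5.71% and 1.81% of features. INSL3 UMIs in Sertoli cells were 1.88 times higher (1.55 to 2.28), those of SCARB1 1.39 times (1.23 to 1.57), and CYP17 was at 0.833 (0.750 to 0.925). HSD17B3 was also at 0.504 (0.334 to 0.756) in stromal and at 0.362 (0.130 to 0.885) in endothelial cells, where 2.24% and 1.48% of features were at least 2 times lower. Endothelial cells had no member higher by that rule (0 of 4), against 6.14% of features. In stromal cells CYP11A1 was 5.00 times higher at E105 (2.14 to 14.3, 50 against 6 UMIs), where 5.97% of features were at least 2 times higher. Stromal STAR was at 0.553 (0.382 to 0.801) and stromal LHCGR at 0.372 (0.171 to 0.777) of their E85 levels.

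CYP17 and INSL3 UMIs were spread over cells that passed the Sertoli gate, gated Leydig-like or not. Of 1821 such cells at E85 (median 11198 UMIs), 29.4% had a CYP17 UMI, and of 1313 at E105 (median 11728), 28.1%. The shares were 4.78% and 3.53% in germ cells and 1.49% and 2.54% in endothelial cells, which had medians of 4885 and 4816.5 UMIs. After every cell was thinned to 6900 UMIs, which left out 114 and 146 Sertoli-gate, 10 and 4 germ and 185 and 156 endothelial cells, the CYP17 shares in Sertoli-gate cells were 20.9% (19.0 to 22.9) and 20.7% (18.4 to 23.1), against 2.73% (1.01 to 5.84) and 1.23% (0.0312 to 6.69) of germ cells and 2.38% (0.290 to 8.34) and 5.00% (1.38 to 12.3) of endothelial cells. INSL3 had a UMI in 10.6% and 19.6% of Sertoli-gate cells before thinning. Its thinned share was 6.85% (5.70 to 8.16) and 12.8% (10.9 to 14.8) in Sertoli-gate cells and 0.455% (0.0115 to 2.51) and 0% (0 to 4.45) in germ cells. In endothelial cells it was 1.19% (0.0301 to 6.46) and 0% (0 to 4.51). The few stromal cells deep enough to be thinned had 4.76% (0.120 to 23.8, 21 cells) and 13.3% (3.76 to 30.7, 30 cells). Those stromal intervals overlapped the Sertoli-gate ones, so the INSL3 share was not set apart from that of stromal cells. Most Sertoli-gate cells had 0 CYP17 UMIs (70.6% and 71.9%), and 7 cells at E85 and 8 at E105 had 10 or more. The genes did not keep the ratio they had in Leydig-like cells. For the 1108 CYP17 UMIs of Sertoli-gate cells at E85, that ratio gives 173 INSL3, 66.0 CYP11A1, 124 STAR and 16.7 LHCGR UMIs, and 218, 41, 9 and 2 were counted. For the 732 CYP17 UMIs at E105 it gives 206 INSL3, 48.8 CYP11A1, 39.1 STAR and 10.8 LHCGR UMIs, and 298, 27, 15 and 1 were counted. INSL3 was thus above that ratio and STAR, CYP11A1 and LHCGR below it in both libraries.

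**Figure D5:**
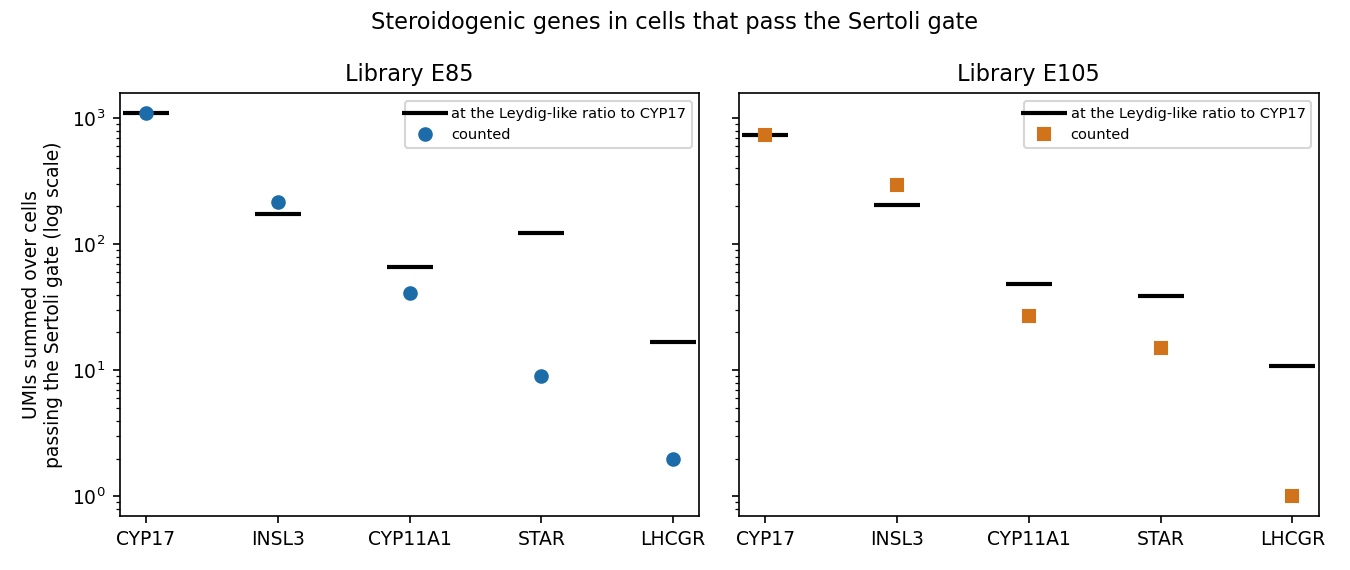
For each gene the filled symbol gives the UMIs counted over all cells that passed the Sertoli gate (y axis, log scale), and the black line gives the number at the ratio to CYP17 found in Leydig-like cells of the same library. The symbol lies above the line for INSL3 and below it for CYP11A1, STAR and LHCGR, most of all for STAR at E85 (9 counted against 124).

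The library labelled E125 held few cells of this kind. Its 29 gated cells low in AMH and ZP3 had CYP17 at 272 CPM (236 to 311), CYP11A1 at 148 CPM (122 to 177), STAR at 71.2 CPM (53.6 to 92.7), LHCGR at 54.4 CPM (39.2 to 73.5) and INSL3 at 31.1 CPM (19.9 to 46.2, 24 UMIs in 8 cells). As pooled sums, INSL3 was there at 0.00943 of its E105 level and CYP17 at 0.0232. Depth weighs on these sums, since the 29 cells had 2049 to 98546 UMIs each. The 21 cells outside the cluster of Leydig-like cells held 674066 of the 772692 UMIs. The median CYP17 level per cell was 413 CPM, against 6236 CPM at E105. Of the members outside the gate with at least 20 UMIs, FDX1 and SCARB1 were at least 2 times higher than at E105 and FDXR, CYB5A and LHCGR at least 2 times lower, where 27.4% of features were higher and 13.4% lower. Of the 57 SCARB1 UMIs, 20 were in 1 cell of an endothelial cluster. The 29 cells differed in other genes too: WT1, a gene of gonadal supporting and mesenchymal cells, was at 338 CPM against 0 at E105. Only 8 of the 29 lay in the cluster of Leydig-like cells. Those 8 cells held CYP17 at 1328 CPM (1111 to 1576), CYP11A1 at 720 CPM (562 to 908), LHCGR at 355 CPM (247 to 494), INSL3 at 213 CPM (132 to 325) and STAR at 183 CPM (108 to 288), with 0 HSD17B3 and 0 AMH UMIs. Within that cluster the direction of LHCGR turned, since the 26 cells of E105 held it at 179 CPM, so its lower call above comes with the cells outside the cluster. The same 26 cells of E105 held CYP17 at 13203 CPM and INSL3 at 3703 CPM. The other 21 of the 29 cells held LHCGR at 10.4 CPM, CYP17 at 117 CPM and INSL3 at 4.45 CPM (3 UMIs). HSD17B3 was counted once in the 4235 stromal cells of this library, 0 times in its endothelial and mural cells and 17 times in its oocyte-gate cells.

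STAR and FDX1 showed another distribution in that library. The 165 cells that passed the oocyte gate held 1410 STAR UMIs, or 135 CPM (128 to 142), in 57.6% of cells, with CYP17 at 9.16 CPM, CYP11A1 at 6.11 CPM and 0 UMIs of INSL3 and LHCGR. Depth enters that share of cells. The 51 ZP3-bearing gated cells, at a median of 157967 UMIs, held 1212 STAR UMIs (151 CPM). The 69 cells classed as oocytes, at a median of 2994 UMIs, held 161 (83.7 CPM). FDX1 was between 22.5 and 69.9 CPM in all classes of that library with at least 20 cells. Its stromal level was 28.8 times that of E105 (17.0 to 52.9), its mural level 7.43 times (2.03 to 61.7, on 2 UMIs at E105), and its endothelial level at least 14.2-fold higher. The endothelial value is by the limit of 3 counts, and the lower end of its interval was 11.4. At least 2-fold higher levels were found for 16.8% of features in stromal, 19.3% in mural and 17.9% in endothelial cells, and at least 2-fold lower levels for 16.5%, 18.6% and 9.59%. SCARB1 was higher by that rule in the same 3 classes, with ratios of 2.85 (2.18 to 3.77), 2.07 (1.14 to 4.18) and 2.06 (1.80 to 2.36).

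The list of 45 further genes of cholesterol handling and steroid synthesis had 31 found by symbol. In Leydig-like over Sertoli cells 7 of 22 measured genes were at least 2 times higher and 8 lower at E85, and 5 and 4 of 22 at E105. Over all features 20.3% were higher and 36.3% lower at E85, and 18.6% and 26.8% at E105, so the share of lower genes in the list was close to the background at E85. With the interval beyond 1 the counts were 6 and 1, then 3 and 2, beside 8.16% and 4.39%, then 9.19% and 5.81%. The median log2 ratio was 0.38 and 0.39, beside 0.42 and 0.24 over all features measured. SQLE, an enzyme of cholesterol synthesis, was at 59.5 CPM against 10.2 CPM in Sertoli cells at E85 (ratio 5.82, 2.75 to 10.9) and 36.9 against 13.4 CPM at E105 (2.74, 1.30 to 5.15). TSPO, an outer mitochondrial membrane protein long linked to cholesterol transport, had 1 UMI in Leydig-like cells at E85 (0.365, 0.00922 to 2.05). At E105 it had 0, and was at least 1.42-fold lower by the limit of 3 counts. HSD17B7 and CYB5B had 0 to 2 UMIs in Leydig-like cells at either stage. With all gated cells 4 genes of this list were higher and 2 lower of 22 at E85 (7.46% and 12.5% of features), and 1 and 2 of 23 at E105 (7.82% and 9.15%).

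Of 33 listed regulators and signalling genes 31 were found. In Leydig-like over Sertoli cells 12 of 23 measured genes were at least 2 times higher and 7 lower at E85, and 12 and 6 of 22 at E105, with median log2 ratios of 1.76 and 1.36. The shares over all features were again 20.3% and 36.3% at E85 and 18.6% and 26.8% at E105. With the interval beyond 1 the counts were 8 and 1 at each stage, beside 8.16% and 4.39% at E85 and 9.19% and 5.81% at E105. NR2F2, a nuclear receptor of interstitial cells, was at 309 CPM against 13.3 CPM in Sertoli cells at E85 (ratio 23.3, 17.0 to 31.6) and 288 against 16.0 CPM at E105 (18.0, 13.7 to 23.3). It was higher still in stromal cells, at 704 and 624 CPM. NR5A1, the nuclear receptor that drives steroidogenic genes, had a ratio of 4.62 (0.932 to 14.0) on 3 UMIs and 12.2 (5.46 to 24.5) on 10. GATA6, DHH and NR4A2 had 0 UMIs in Leydig-like cells at both stages. With all gated cells 6 regulators were higher and 4 lower of 23 at E85 (7.46% and 12.5% of features), and 7 and 2 of 22 at E105 (7.82% and 9.15%). Between stages, 0 of 10 measured pathway genes were at least 2 times higher in Leydig-like cells at E105 and 1 was lower, and 0 of 5 regulators were either, where 7.14% of features were higher and 3.22% lower.

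The genes whose levels were most like those of INSL3 over 24 sums of a class in a library were CYP17 (Pearson's r of log2(CPM + 1) 0.946), FDXR (0.855), AP3B1 (0.836), AS3MT (0.824) and BCAP31 (0.809). Those most like HSD17B3 were LTF (0.954), PLA2G1B (0.892), OTOS (0.874), SEC61G (0.867) and PLAC1 (0.864). The gated class in these sums holds all gated cells, AMH-bearing and ZP3-bearing ones included, and INSL3 and CYP17 both chose it. The sums of 1 library also share its depth and its free RNA, so these values describe the pattern only.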

How the data were processed

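The deposited matrices hold raw UMI counts per feature and barcode, made by the authors with Cell Ranger. The file headers name version 6.0.0 and the submitters' processing notes version 3.1; the build is not given in the sources used here. Kept barcodes had 1000 or more UMIs, 500 or more genes and no more than 20% of counts in 13 mitochondrial genes (Python 3.11.15, numpy 2.4.6, scipy 1.17.1, pandas 2.3.3). Doublets were not removed, except in an alternative that left out the 6% highest scores per library. Cell classes came from gates on marker genes: at least 2 detected, at least 4 UMIs in sum and, except for the Leydig-like gate, a sum at or above that of the mean profile. The Leydig-like gate went first. The Sertoli gate ran on SOX9, DMRT1 and FSHR (CLDN11, also planned, matched no symbol). The 31 Leiden clusters (scanpy 1.11.5, 3000 variable genes, 30 components, 15 neighbours, resolution 1) served as an alternative. UMIs were summed per class and library. Intervals are Poisson for levels, binomial splits for ratios and Clopper-Pearson for shares, at 95%, and a count of 0 has a limit of 3 counts. A gene was measured with at least 20 UMIs over both sums and called at a ratio of 2. TMM factors came from edgeR 4.0.16 (R 4.3.3); figures were drawn with matplotlib 3.10.9. Beside the 10 genes, the text names up to 6 genes of each list with the largest ratio and the 5 genes most like INSL3 or HSD17B3; some genes that this rule names are not reported here. The ratio step was checked on simulated data, where the fold rule alone often called unchanged genes with few UMIs, so counts with the interval beyond 1 are given too for Leydig-like against Sertoli cells. The genes and lists were chosen with earlier results of these data known. Promoter sequences were not used here.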

Additional observations from a re-analysis of the deposited data

How the results depend on the processing

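No paired analysis was possible because each stage is 1 library. The main setting in this section takes all gated cells, AMH-bearing ones included. The depth and doublet settings were not run on the Leydig-like cells alone. Of the ratios of single genes (36 per setting, but 34 with cluster classes and 35 without AMH-bearing or ZP3-bearing cells), 0 moved beyond the main interval with at least 2000 UMIs per barcode, with all deposited barcodes or without the 6% highest doublet scores, 6 moved under TMM scaling and 9 with the mean CPM of cells. Settings that change which cells are taken moved 17 to 19, and no direction of a called value reversed. The ratios include those of Sertoli cells between stages, where 2 values moved and 70 did not over all settings. The main gate gave 62, 65 and 81 cells, with 1 and 3 members outside the gate and 4 and 1 pathway genes higher at E85 and E105. A gate of at least 8 UMIs gave 27 and 34 cells at E85 and E105, 4 members at E85 and 4 pathway genes at E105. Leaving out cells that also pass the Sertoli gate gave 30 and 38 cells, 4 members at E85 and 4 pathway genes at E105. Cluster classes gave 22, 30 and 8 cells, 4 members at E85, and 7 and 3 pathway genes. Leaving out cells with 5 or more AMH or 20 or more ZP3 UMIs, chosen after seeing the data, gave 25, 31 and 29 cells, 4 members at E85, and 7 and 5 pathway genes. TMM scaling gave 1 pathway gene at E85, and at E105 the doublet setting and the mean CPM gave 2 each. A fold of 1.5 gave 4 members at E85 and 4 pathway genes at E105, and a fold of 3 gave 0 pathway genes at E85 and 1 member at E105. The counts in Leydig-like cells rest on 25 and 31 cells with 168091 and 271203 UMIs, which limits what can be read for FDX1, SCARB1 and TSPO.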
